A study of Mus musculus with 11 samples.

Results

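The 10 genes described here encode neutrophil granule proteins and factors of the granulocyte progenitor, and all 10 were found by symbol among the 21860 genes measured. They were chosen by name with earlier results of these libraries known, among them the FICZ effect in Jag1 cultures, so their levels are given as a description. Elane, Prtn3 and Ctsg encode serine proteases of the primary granule and Mpo encodes its peroxidase. Ngp, Camp and Ltf encode proteins of the secondary granule. Cebpe and Gfi1 are transcription factors of granulocyte differentiation, and Ms4a3 encodes a membrane protein of granulocyte-monocyte progenitors.

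Neutrophils make their granules in order while they mature. Primary granule proteins are made at the promyelocyte stage from granulocyte-monocyte progenitors, and secondary granule proteins are made later, when Cebpe is active. Mature neutrophils and monocytes have largely stopped making primary granule transcripts, so these genes serve as markers of immature cells in bone marrow.

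RNA was sequenced from 11 samples of CD11b-low EpCAM+ cells sorted on day 6 from cultures of mouse bone marrow monocytes, which had been enriched with a magnetic kit. GM-CSF was present throughout, at 20 ng/ml. A single sample had Jag1 and neither TGFβ nor IL-34 (Jag1 only). The other 10 had TGFβ (5 ng/ml) with IL-34 (8 µg/ml), alone in 2 samples (TGFβ/IL-34), and beside FICZ in 2 (TGFβ/IL-34/FICZ), Jag1 in 3 (TGFβ/IL-34/Jag1) or both in 3 (TGFβ/IL-34/Jag1/FICZ). Jag1, a Notch ligand, was presented by OP9, a mouse stromal cell line, and FICZ is a ligand of the aryl hydrocarbon receptor (Ahr) that the study used as an agonist. The deposited design text calls it an antagonist. The labels name OP9 in every sample, but 6 stromal genes summed to 0 in both TGFβ/IL-34/FICZ libraries and to 5.19 to 16.2 normalized counts in TGFβ/IL-34, against 380 to 4544 in the 6 TGFβ/IL-34 libraries with Jag1. Jag1 and the presence of OP9 therefore cannot be told apart.

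Values are the authors' normalized counts, for which 1 read was worth 0.894 to 1.15 and the floor of 3 reads stood at 2.68 to 3.45. An estimated 20.6 to 24.2 M reads were held by each library. Nothing states that the libraries of a group came from separate animals, so errors and p-values measure the spread between these samples. In sorted bulk RNA, a change in the number of cells that make a transcript and a change per cell cannot be told apart. Of the genes that define the sorted cell, Epcam stood at 3952 to 14377 in the 10 libraries with TGFβ and IL-34 and at 657 in Jag1 only.

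The members lie on 6 chromosomes (GRCm39). Elane (ENSMUSG00000020125, chr10:79722081-79724051) and Prtn3 (ENSMUSG00000057729, chr10:79710310-79719008) are neighbours on the plus strand of chromosome 10, 3072 bases apart with no protein-coding gene between them. Ngp (ENSMUSG00000032484, chr9:110248815-110252086, plus strand), Camp (ENSMUSG00000038357, chr9:109676442-109678685, minus strand) and Ltf (ENSMUSG00000032496, chr9:110848339-110871835, plus strand) share chromosome 9, at gaps of 570 kb and 596 kb. Ctsg (ENSMUSG00000040314, chr14:56337338-56340031) and Cebpe (ENSMUSG00000052435, chr14:54947817-54949631) lie on the minus strand of chromosome 14. Mpo (ENSMUSG00000009350) is at chr11:87684407-87695239 on the plus strand, and Ms4a3 (ENSMUSG00000024681, chr19:11606860-11618215) and Gfi1 (ENSMUSG00000029275, chr5:107864523-107873902) are on the minus strand.

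The 250 bases before the start of the GENCODE canonical transcript were read from GRCm39 for each member and searched on both strands for GCGTG, the core letters bound by Ahr, for TTGCNNAA, a C/EBP motif, and for GAGGAA, letters of ETS family sites. No matches of different motifs overlapped in the windows shown. The windows of 4 members are printed because their genes stand for the patterns below: Elane with the widest FICZ difference, Ctsg with 2 Ahr core matches, Ngp as the secondary granule gene with the highest level, and Mpo, which stayed near the floor. All read 5′ to 3′ on the strand of the gene, with matches in capitals.
Elane, chr10:79721831-79722080, plus strand: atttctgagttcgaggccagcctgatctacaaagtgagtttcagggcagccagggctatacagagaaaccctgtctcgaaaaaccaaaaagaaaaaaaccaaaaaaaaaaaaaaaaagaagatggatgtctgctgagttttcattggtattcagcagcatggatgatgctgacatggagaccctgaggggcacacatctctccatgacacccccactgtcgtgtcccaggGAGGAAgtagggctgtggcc
Ctsg, chr14:56340032-56340281, minus strand: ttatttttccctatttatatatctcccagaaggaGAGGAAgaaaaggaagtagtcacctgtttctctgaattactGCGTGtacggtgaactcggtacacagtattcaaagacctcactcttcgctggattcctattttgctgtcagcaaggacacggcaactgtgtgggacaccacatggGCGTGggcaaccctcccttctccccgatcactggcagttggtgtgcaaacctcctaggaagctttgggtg
Ngp, chr9:110248565-110248814, plus strand: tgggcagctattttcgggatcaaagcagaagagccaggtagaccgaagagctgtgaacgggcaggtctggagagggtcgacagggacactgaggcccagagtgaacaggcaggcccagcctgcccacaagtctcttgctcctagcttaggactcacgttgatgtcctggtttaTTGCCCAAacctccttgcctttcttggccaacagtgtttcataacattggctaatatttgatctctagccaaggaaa
Mpo, chr11:87684157-87684406, plus strand: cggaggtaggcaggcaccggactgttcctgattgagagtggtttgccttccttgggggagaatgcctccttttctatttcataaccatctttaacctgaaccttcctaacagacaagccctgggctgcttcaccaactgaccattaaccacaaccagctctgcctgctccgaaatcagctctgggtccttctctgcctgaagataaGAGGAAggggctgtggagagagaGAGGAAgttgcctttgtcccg
GCGTG was present in 2 of the 10 members (Prtn3 and Ctsg), against 31.2% of 21757 protein-coding genes. TTGCNNAA was present in the 3 secondary granule genes Ngp, Camp and Ltf, against 9.34% of all windows. GAGGAA was present in 6 members (Elane, Prtn3, Ctsg, Mpo, Cebpe and Ltf), against 22.9%. A match is a run of letters and not a bound site, and these windows were not measured in these samples.

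Elane, the gene of neutrophil elastase, stood at 3050, 3694 and 2094 normalized counts in TGFβ/IL-34/Jag1/FICZ and at 1978 and 964 in TGFβ/IL-34/FICZ. It stood at 120 and 176 in TGFβ/IL-34, at 9.07, 0 and 4.97 in TGFβ/IL-34/Jag1 and at 3.10 in Jag1 only. The 4 groups with replicates did not overlap, so Elane was highest with Jag1 and FICZ, next with FICZ, then without either, and at or near the floor with Jag1. Group means were 2946 ± 805 (SD, n = 3), 1471 ± 717 (SD, n = 2), 148 ± 39.8 (SD, n = 2) and 4.68 ± 4.54 (SD, n = 3) in that order. Taken singly, the steps down this order occurred without overlap in 19.6%, 22.6% and 22.8% of 13095 genes tested. The share of genes with the whole order was not computed.

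Prtn3, the gene of proteinase 3, stood at 1726, 2106 and 1527 with Jag1 and FICZ, and at 1522 and 661 with FICZ. It stood at 87.8 and 174 in TGFβ/IL-34, at 207, 28.3 and 43.4 with Jag1, and at 156 in Jag1 only. Both FICZ groups lay above all libraries without FICZ. Taken singly, FICZ libraries lay above those without it in 22.6% of all genes tested without Jag1 and in 23.6% with Jag1. TGFβ/IL-34 and TGFβ/IL-34/Jag1 overlapped, in contrast to Elane.

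Ctsg, the gene of cathepsin G, stood at 665, 591 and 141 with Jag1 and FICZ and at 197 and 113 with FICZ. It stood at 10.3 and 17.2 in TGFβ/IL-34 and at 33.8, 17.6 and 11.9 with Jag1. The Jag1 only library, at 221, was above both TGFβ/IL-34/FICZ libraries, whereas Elane in the same library was at about 3 reads. Replicate 3 of TGFβ/IL-34/Jag1/FICZ lay within the range of TGFβ/IL-34/FICZ, so the FICZ groups overlapped.

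Mpo, the gene of myeloperoxidase, did not follow the other primary granule genes. It stood at 3.75 to 4.29 in the 3 TGFβ/IL-34/Jag1/FICZ libraries, at 9.45 and 0 in TGFβ/IL-34/FICZ, at 0 and 3.12 in TGFβ/IL-34, and at 3.42 to 12.2 in TGFβ/IL-34/Jag1. Its highest value was 27.2, in Jag1 only. The 10 libraries with TGFβ and IL-34 thus held from 0 to about 12 reads of Mpo, a depth at which differences between their groups were not detectable.

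Ms4a3 stood at 715, 949 and 657 with Jag1 and FICZ, at 421 and 484 with FICZ, and at 77.6 and 93.6 in TGFβ/IL-34. It stood at 1.19, 25.7 and 20.4 with Jag1 and at 25.4 in Jag1 only. The 4 groups with replicates had the order of Elane and did not overlap, as in 19.6%, 22.6% and 22.8% of all genes for the single steps.

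Cebpe encodes C/EBP epsilon, which is needed for secondary granules. It stood at 1079, 1386 and 1248 with Jag1 and FICZ, at 995 and 704 with FICZ, and at 110 and 203 in TGFβ/IL-34. It stood at 4.54, 6.25 and 9.89 with Jag1 and at 24.8 in Jag1 only. These 4 groups also had the order of Elane with no overlap, as in 19.6%, 22.6% and 22.8% of all genes for the single steps. The spread within TGFβ/IL-34/Jag1/FICZ was small (1238 ± 154, SD, n = 3).

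Gfi1 encodes a repressor that favours the granulocyte over the monocyte fate. It stood at 117, 79.7 and 34.2 with Jag1 and FICZ and at 8.94 and 28.3 with FICZ. It stood at 8.05 and 10.2 in TGFβ/IL-34, at 1.61, 2.21 and 8.89 with Jag1, and at 28.6 in Jag1 only. The 3 libraries with both additions were above the other 8 libraries, by a lowest value of 34.2 against 28.6. Taken singly, their group lay above TGFβ/IL-34/FICZ in 19.6%, above TGFβ/IL-34 in 28.8% and above TGFβ/IL-34/Jag1 in 23.6% of all genes tested. TGFβ/IL-34/FICZ, TGFβ/IL-34 and TGFβ/IL-34/Jag1 overlapped in turn.

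Ngp, neutrophilic granule protein, had the widest gap between the FICZ groups. It stood at 2607, 3972 and 2405 with Jag1 and FICZ and at 253 and 488 with FICZ alone. It stood at 44.4 and 205 in TGFβ/IL-34, at 37.4, 76.0 and 65.3 with Jag1, and at 60.0 in Jag1 only. The ratio of the FICZ group means with and without Jag1 was 8.08, against 2.00 for Elane and 1.46 for Cebpe.

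Ltf, the gene of lactoferrin, stood at 359, 503 and 338 with Jag1 and FICZ, at 314 and 135 with FICZ, and at 17.9 and 242 in TGFβ/IL-34. It stood at 24.7, 84.3 and 35.3 with Jag1 and at 31.4 in Jag1 only. The TGFβ/IL-34 libraries differed from each other by more than 10 times and overlapped both neighbours.

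Camp, the gene of the cathelicidin peptide, stood at 15.9, 35.8 and 49.4 with Jag1 and FICZ, at 21.7 and 9.46 with FICZ, and at 0 and 14.4 in TGFβ/IL-34. It stood at 3.38, 5.19 and 0.999 with Jag1 and at 2.05 in Jag1 only. All neighbouring groups in its order overlapped.

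**Figure D1:**
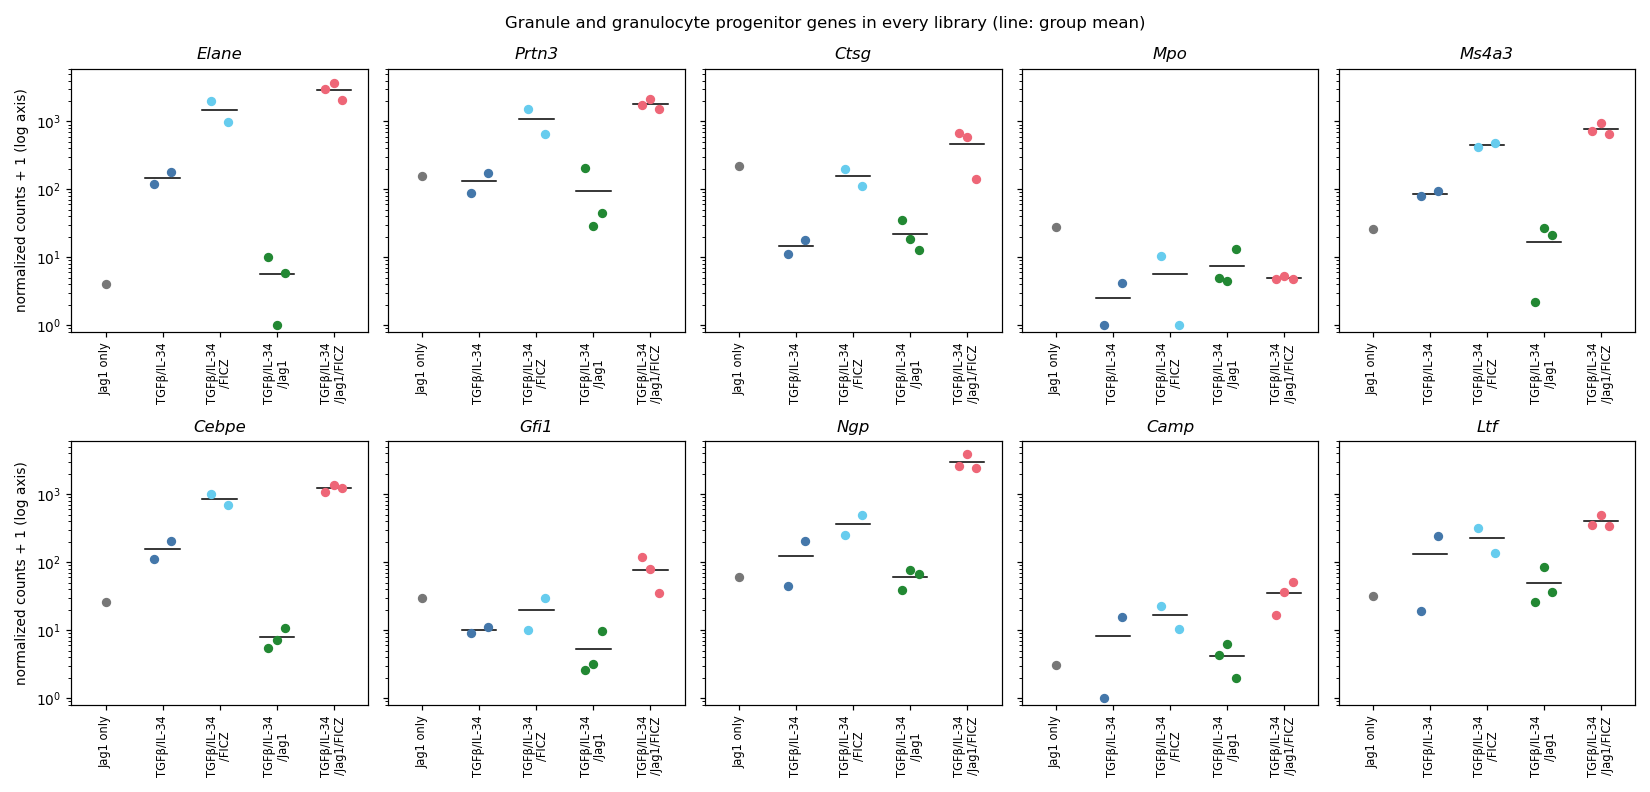
Normalized counts plus 1 (vertical axis, log scale) of the 10 genes in each of the 11 libraries (points), by culture group (horizontal axis), with a line at the mean of groups with replicates. Elane, Ms4a3 and Cebpe fell into 4 levels without overlap, from the lowest in TGFβ/IL-34/Jag1 to the highest in TGFβ/IL-34/Jag1/FICZ. Taken singly, the steps down this order occurred without overlap in 19.6%, 22.6% and 22.8% of all genes tested. The top step was 2094 against 1978 for Elane, 1079 against 995 for Cebpe and 657 against 484 for Ms4a3. Limma called none of these genes at the top or middle step, and called Elane and Cebpe at the lowest step. Mpo stayed between 0 and 12.2 in the 10 libraries with TGFβ and IL-34. The share of all genes with such 4 levels was not computed.

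Per kb of the canonical transcript, the mean level in TGFβ/IL-34/Jag1/FICZ was highest for Elane (2988 normalized counts per kb), followed by Ngp (2439), Prtn3 (1743), Cebpe (997), Ms4a3 (777) and Ctsg (465). Ltf stood at 145, Camp at 44.2, Gfi1 at 26.9 and Mpo at 1.44. Among the primary granule genes the level per kb therefore ran from the highest of the 10 genes to the lowest. Summed over the 10 genes, TGFβ/IL-34/Jag1/FICZ libraries held 8499 to 13321 normalized counts, TGFβ/IL-34/FICZ 3586 and 5721, TGFβ/IL-34 476 and 1138, TGFβ/IL-34/Jag1 213 to 326 and Jag1 only 580. Even the highest sum was 0.0616% of the library's total.

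FICZ added to Jag1 cultures was the comparison with the widest differences. The log2 fold change, taken on log2(normalized counts + 1), was 9.52 (SE 0.717) for Elane, 7.34 (SE 0.336) for Cebpe, 6.15 (SE 0.766) for Ms4a3 and 5.65 (SE 0.522) for Ngp. It was 4.78 for Prtn3, 4.24 for Ctsg, 4.0 for Gfi1 and 3.20 for Ltf. These 8 passed an adjusted p of 0.05 in limma, fitted over 13095 genes, of which 10.9% passed on the higher side. Camp (3.06, SE 0.980) and Mpo (−0.42, SE 0.969) did not. Camp passed with 4 added in place of 1 and with only these groups fitted. The median over the members was 4.51, and over all genes tested −0.0083. Because the choice of members used this comparison, nothing is read from the count or from that median.

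In this comparison the groups did not overlap for 9 members, all but Mpo, a property of 23.6% of all genes in the higher direction. For Elane, libraries of the same replicate number, which share an experiment code, differed by 8.24, 11.9 and 8.46 on the log2 scale. The fit held no term for this pairing, and a block by replicate number changed no member call in this comparison. The size of the Elane value depended on the added 1, since TGFβ/IL-34/Jag1 was at 0 to about 8 reads: it was 9.92 with 0.5 added and 8.53 with 4 added. Ltf passed with a small margin and was not called when any of 5 libraries of the 6 was left out, the exception being replicate 2 of TGFβ/IL-34/Jag1, or without the filter on low values.

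FICZ added without Jag1 shared no library with that comparison in its group means. Its errors and p-values rested on the spread within all groups, the libraries of that comparison among them. All 10 members were higher on average in TGFβ/IL-34/FICZ than in TGFβ/IL-34, and in 6 of them (Elane, Prtn3, Ctsg, Ms4a3, Cebpe and Ngp) both FICZ libraries were above both libraries without it, as in 22.6% of all genes. None of the 10 passed an adjusted p of 0.05 (limma), where 0.0229% of all genes did in either direction. At an unadjusted p of 0.05 the same 6 passed on the higher side, against 9.13% of all genes.

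The smallest adjusted p in FICZ without Jag1 was that of Cebpe, 0.0919 (limma, log2 fold change 2.48, SE 0.412), with means of 156 ± 65.7 and 850 ± 206 (SD, n = 2 each). Elane had a log2 fold change of 3.24 (SE 0.878, limma adjusted p 0.280), or 9.92 times in the group means. Ctsg had 3.39 (SE 0.745, adjusted p 0.213) and Prtn3 had 3.01 (SE 0.779, adjusted p 0.279). Ms4a3 (2.39) and Ngp (1.87) shared an adjusted p of 0.285, and Camp, Ltf, Gfi1 and Mpo lay between 0.354 and 0.747. When the second TGFβ/IL-34/FICZ library was left out, Elane, Prtn3, Ctsg and Cebpe had adjusted p-values of 0.0021 to 0.0214 in limma, with the remaining library taken to vary like the other groups. In that fit 5718 genes passed rather than 3. The sample descriptions give an experiment code, and only replicate 1 of TGFβ/IL-34 and replicate 2 of TGFβ/IL-34/FICZ share one in this comparison. Within it Elane stood at 120 and 964 and Cebpe at 110 and 704. The other 2 codes hold 1 of these groups each. The deposited sample sheet gives that TGFβ/IL-34 library a different code, so the shared code is uncertain.

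**Figure D2:**
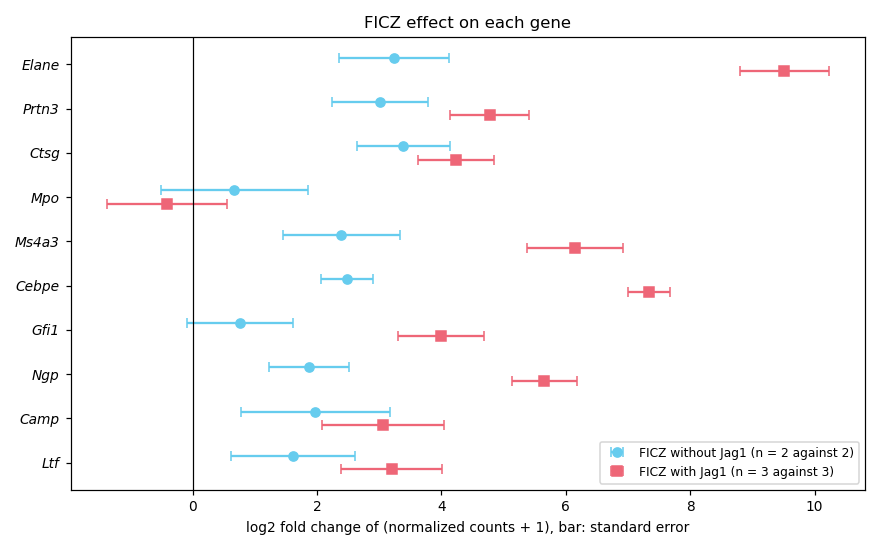
Log2 fold change of normalized counts plus 1 (horizontal axis) with FICZ for each gene, without Jag1 (circles, 2 against 2 libraries) and with Jag1 (squares, 3 against 3), bars giving the standard error. All genes but Mpo lay further right with Jag1, with the gap widest for Elane (3.24 and 9.52) and Cebpe (2.48 and 7.34).

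The difference between the FICZ effects, tested as an interaction, was 6.28 (SE 1.13) for Elane and 4.86 (SE 0.532) for Cebpe, and these 2 members passed an adjusted p of 0.05 in limma, where 1.17% of all genes passed on the higher side. Both were near the floor in TGFβ/IL-34/Jag1. Ngp (3.78, SE 0.825), Ms4a3 (3.76, SE 1.21) and Gfi1 (3.24, SE 1.10) had positive values that did not pass, and Mpo had −1.09 (SE 1.53). Elane was not called with 0.5 added in place of 1, without the filter, or without any of 7 libraries of the 10 (both of TGFβ/IL-34, replicate 1 with FICZ alone, replicate 3 with Jag1 alone and all 3 with both), and Cebpe was called in every alternative run.

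The effect of Jag1 in the absence of FICZ was taken from the TGFβ/IL-34/Jag1 libraries against those with TGFβ/IL-34 alone. Elane was lower by a log2 fold change of −5.23 (SE 0.801) and Cebpe by −4.31 (SE 0.376), and both passed an adjusted p of 0.05 in limma, with 3.96% of all genes on the lower side. Without replicate 2 of TGFβ/IL-34, Elane was no longer called. Ms4a3 had −3.00 (SE 0.857) with no overlap between the groups, as 22.8% of all genes had on the lower side. It did not pass, but did with 4 added in place of 1 and in fits that omitted the library of replicate 1 or 2 with Jag1. Prtn3 (−0.95, SE 0.711), Ctsg (0.50, SE 0.680), Ngp (−0.73, SE 0.583) and the other 4 members did not pass either. The primary granule proteases were thus not alike with Jag1: Elane went from 148 to 4.68 in the group means, and Prtn3 from 131 ± 60.8 to 92.8 ± 99.0 (SD, n = 2 and 3).

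Jag1 added in the presence of FICZ compared the FICZ groups. Ngp was the member called, with a log2 fold change of 3.05 (SE 0.583), where 2.02% of all genes passed in either direction. Its call was lost when TGFβ/IL-34/FICZ replicate 1 or any TGFβ/IL-34/Jag1/FICZ library was left out, without the filter, with the experiment code in the fit and with only these groups fitted. The other 9 members had fitted log2 fold changes of 0.56 (Cebpe) to 2.03 (Gfi1) and did not pass, and the mean of Mpo was lower with Jag1 (3.95 against 4.72). Gfi1 passed without the second TGFβ/IL-34/FICZ library. Elane differed by 1.05 (SE 0.801), with libraries of 2094 to 3694 against 964 and 1978.

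With Jag1 and FICZ together against neither, every library of the group with both lay above both TGFβ/IL-34 libraries for all 10 members, as in 28.8% of all genes. For Mpo this rested on 3.75 to 4.29 against 0 and 3.12, near the floor, where a difference was not detectable. For Camp it rested on a lowest value of 15.9 against 14.4. Ngp (log2 fold change 4.92, SE 0.583), Ctsg (4.74, SE 0.680), Elane (4.29, SE 0.801), Prtn3 (3.83, SE 0.711) and Cebpe (3.04, SE 0.376) passed an adjusted p of 0.05 in limma, with 3.12% of all genes on the higher side. Ms4a3 (3.15, SE 0.857) did not, but passed with quantile normalization, with 4 added, with the experiment code in the fit and with only these groups fitted. Gfi1 (2.78, SE 0.777) passed with 4 added and with only these groups, and Ltf without replicate 2 of TGFβ/IL-34. Ctsg was 33.9 times, Ngp 24.1 times and Elane 19.9 times as high in the group means. Without replicate 1 of TGFβ/IL-34, only Ngp of these 5 was called, and Elane and Prtn3 were also lost without its replicate 2 or without replicate 1 or 2 of the group with both. The comparisons share libraries with one another, except for the FICZ effects with and without Jag1 and the Jag1 effects with and without FICZ.

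Other granule genes were described from lists of the pathway. These and the marker lists below were chosen with earlier results of these data known, so nothing is read from their counts. With FICZ in Jag1 cultures, where 10.9% of all genes passed on the higher side, 7 of 9 other primary granule genes were tested and 6 were called higher. Among them were Cst7, the gene of the protease inhibitor cystatin F, from a mean of 20.5 to 691 (log2 fold change 4.98), Serpinb1a, an inhibitor of neutrophil serine proteases, from 62.8 to 1097 (4.21), Prss57, a further granule serine protease, from 25.8 to 464 (4.20), and Slpi, an elastase inhibitor, from 29.7 to 222 (2.85). Bpi was at 0 in all 11 libraries and Lyz1 reached 0.907 in 1.

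Of 12 other secondary and tertiary granule genes, 10 were tested and 7 were called higher in that comparison, against 10.9% of all genes. Mmp8, neutrophil collagenase, went from 2.98 to 352 (log2 fold change 6.92), Cd177 from 9.89 to 314 (4.90), Abca13 from 9.26 to 107 (3.86) and Lcn2, the iron-binding lipocalin, from 19.9 to 275 (3.77). In TGFβ/IL-34/FICZ, Mmp8 stood at 1036 and 438, above the 320 to 386 with Jag1 and FICZ. Lcn2 stood at 3405 and 337 there, so that its mean of 1871 rested on replicate 1, against 269 to 282 with Jag1 and FICZ. Without Jag1, none of the tested genes of both granule lists passed, where 0.0229% of all genes did in either direction. There, 5 of 7 primary and 7 of 10 secondary and tertiary genes were higher on average with FICZ, against 6337 of all 13095. Their median log2 fold changes were 1.51 and 0.977, against −0.0196 over all genes tested.

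Of 8 mature neutrophil genes, 6 were tested and 4 were called higher with FICZ in Jag1 cultures, against 10.9% of all genes. The 4 were Padi4 (log2 fold change 4.54), the calprotectin genes S100a9 (4.48) and S100a8 (4.0), and the chemokine receptor Cxcr2 (3.05). Csf3r, the G-CSF receptor, stood at 53.5 to 113 with Jag1 and at 48.2 to 68.7 with Jag1 and FICZ (−0.41) and was not called. Ly6g, a defining marker of mature mouse neutrophils, was at 0 in 10 libraries and at 11.4 in replicate 2 of TGFβ/IL-34, and Retnlg did not exceed 2.13.

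In this comparison 10.9% of all genes passed on the higher side and 6.71% on the lower side. Of 8 other transcription factors, Gfi1b (5.49) and Runx1 (1.46) were called higher and Cebpd (−1.54) lower. Irf8 (0.51) was not called, at means of 27618 with Jag1 and 38936 with Jag1 and FICZ. Of 5 progenitor genes, 4 were called higher: Myb, which maintains immature blood cells, from 17.9 to 1105 (5.96), Flt3 (2.39), Sox4 (1.66) and Cd34 (1.33). All 5 cell cycle genes were called higher, among them Mki67 from 432 to 2943 (2.88) and Ccnb1 (3.30).

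Markers of other cells moved in the same comparison, in which 10.9% of all genes passed on the higher side. Of 6 classical monocyte genes, 5 were tested and 4 were called higher (Plac8 5.28, Ly6c2 5.25, Vcan 4.84 and Ccr2 2.17). The sum of the list was 93.5 to 153 without FICZ and 3906 to 4536 with it, of which most was Plac8 (mean 3114). Against TGFβ/IL-34, the mean with Jag1 and FICZ was lower for Ccr2 (87.7 against 285) and higher for Plac8, Ly6c2 and Vcan. Of 8 mast cell and basophil genes, 6 were tested and 5 were called higher (among them Ms4a2 5.08, Cpa3 4.62, Hdc 3.92 and Gata2 3.20). Their sum was 684 to 901 without FICZ and 8029 to 11460 with it, with the defining receptor gene Fcer1a at 0 in all libraries. Of 5 eosinophil genes, 3 were tested and all 3 were called higher (Epx 4.87, Siglecf 4.69 and Prg2 4.36), with sums of 45.1 to 181 and 1187 to 2330. Against TGFβ/IL-34, the mean with Jag1 and FICZ was lower for Siglecf (604 against 869). It was higher for Epx (679 against 70.9) and Prg2 (620 against 57.0). The receptor genes Ccr3 and Il5ra, which were not tested, reached at most 0.931 and 3.92 with Jag1 and FICZ. The part of all these cell types in the granule gene result was not tested.

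The 6 stromal genes were not called with FICZ in Jag1 cultures (Col1a1 1.65, Sparc 1.5, Bgn 1.45 and Col1a2 1.37 among them), though their sum reached 632 to 4544 against 380 to 1034. In both TGFβ/IL-34/FICZ libraries all 6 were at 0, and Elane stood at 964 and 1978 there. Of the genes of the sorted cell, Cd207, the gene of langerin, was called lower with FICZ in Jag1 cultures, from 1616 to 48.9 (−6.27), and Epcam (−0.53) and Cd24a (−0.40) were not called. Of 4 lymphoid genes none passed the filter, and of 3 erythroid genes 1 did and was not called.

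**Figure D3:**
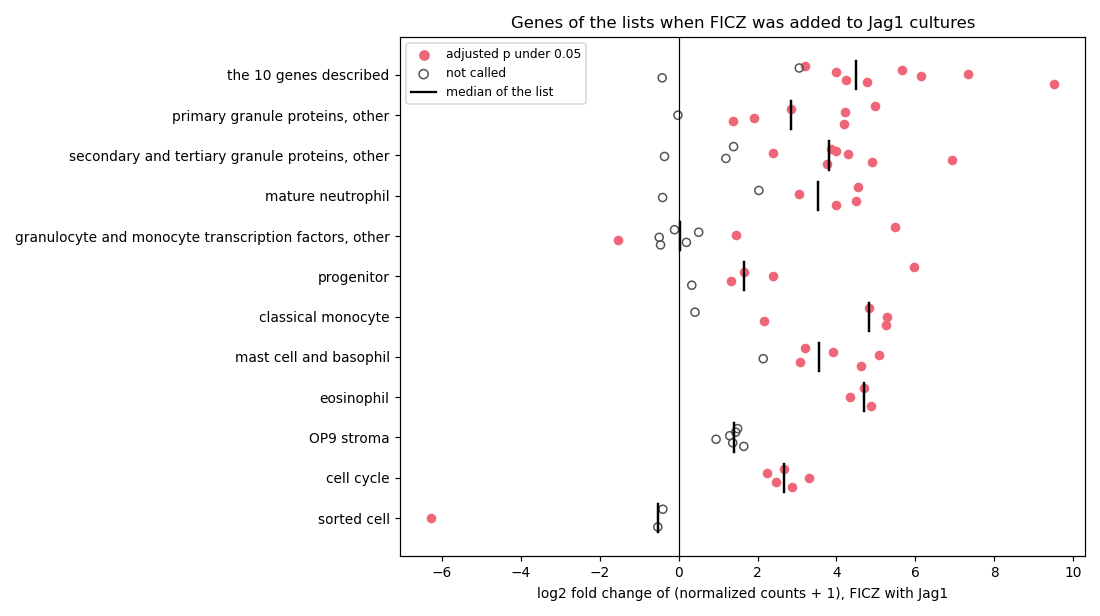
Log2 fold change of normalized counts plus 1 with FICZ in Jag1 cultures (horizontal axis) for each tested gene (points) of the lists, filled where the adjusted p was under 0.05 in limma, with a bar at each list's median. The 10 genes had a median of 4.51, beside 2.85 for the other primary granule genes, 3.81 for secondary and tertiary granule genes, 4.84 for classical monocyte, 3.56 for mast cell and basophil and 4.69 for eosinophil genes. The 10 genes and the lists were chosen with earlier results of these data known.

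**Figure D4:**
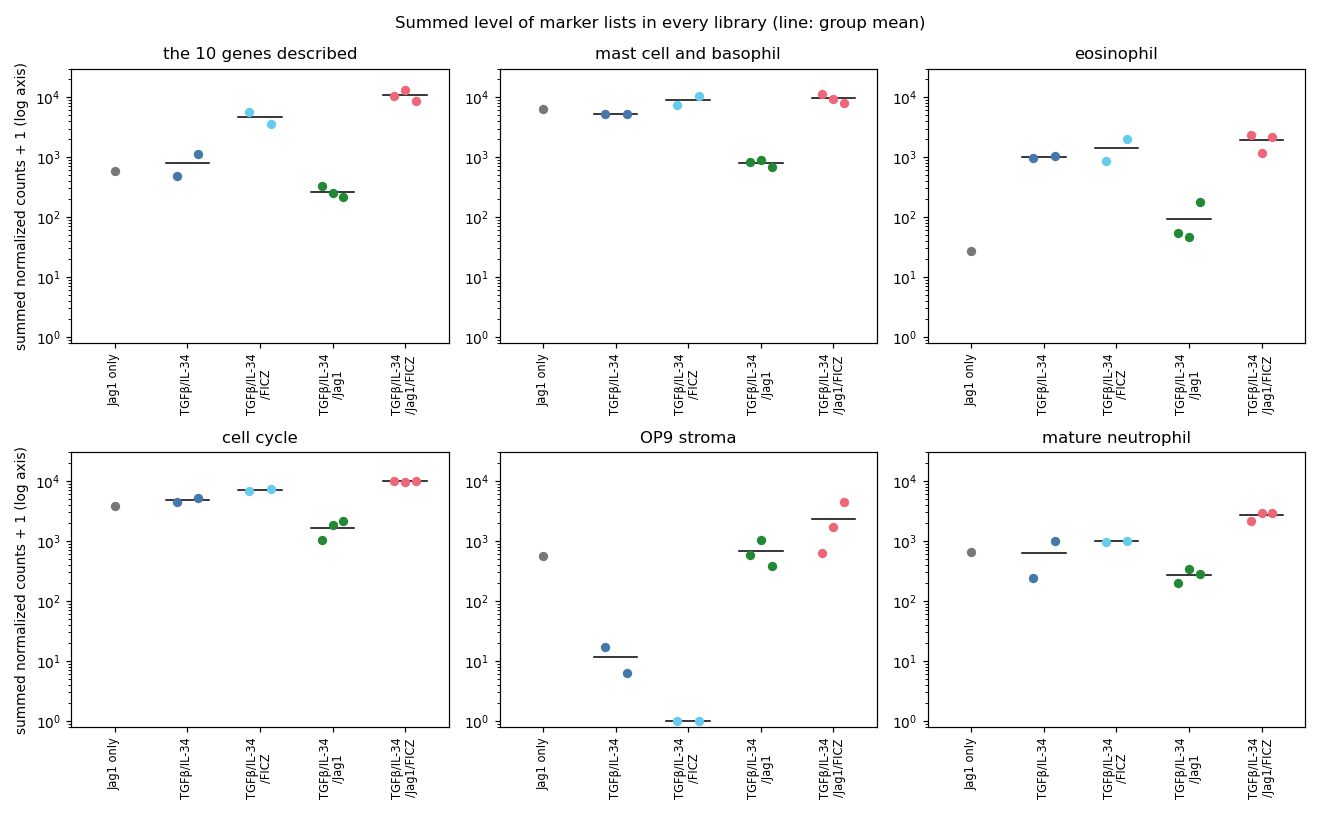
Summed normalized counts plus 1 (vertical axis, log scale) of the 10 genes and of 5 marker lists in each library (points), by culture group (horizontal axis), with a line at the mean of groups with replicates. The sums of the 10 genes, of mast cell and basophil, of eosinophil and of cell cycle genes were each lower in TGFβ/IL-34/Jag1 than in the other groups with replicates, and the stromal sum was 0 in TGFβ/IL-34/FICZ.

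Over the 11 libraries, which share groups and so are not independent points, the 36 pairs of members without Mpo had Pearson's r of 0.503 to 0.968 on log2 values (median 0.791). The 9 pairs with Mpo had r of −0.320 to 0.249. The genes most like the mean standardised level of the members were Septin5 (r 0.989), Prss57 (0.975), Rasgrp2 (0.972), Angpt1 (0.968), Thy1 (0.967), S100a9 (0.966), Ncam1 (0.965), Ubac2 (0.963), Baiap3 (0.962) and Mad2l1 (0.961). Rasgrp2, a Rap activator of blood cells, stood at 20.3, 79.8, 598 and 1126 in TGFβ/IL-34/Jag1, TGFβ/IL-34, TGFβ/IL-34/FICZ and TGFβ/IL-34/Jag1/FICZ. Thy1, a surface glycoprotein, stood at 230, 987, 7878 and 13764 in the same order, which is the order of Elane, Ms4a3 and Cebpe. Both genes were picked for their correlation with the members over these libraries, so the shared order is not a separate result.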

How the data were processed

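The values are a normalized signal per gene that the authors deposited: reads quantified with salmon against Ensembl GRCm39, summed to genes with tximport and scaled with DESeq2 (versions not stated). A second deposited file with sample metadata entered no computation, and was read only to compare its experiment codes with the sample descriptions. All 11 columns were mapped to samples by their labels. Genes at 10 or more in at least 2 samples (13095) were fitted as log2(value + 1) with limma 3.58.1 in R 4.3.3, with 1 mean per group, all samples, 6 residual degrees of freedom, two-sided tests and Benjamini-Hochberg adjustment per contrast. Whole reads could not be recovered for all genes, so no count model was run. The worth of 1 read came from low values of genes with 1 transcript, of which 80.9% to 98.8% were whole multiples within 0.1 steps over values up to 15 steps. Totals were 21.3 to 27.8 M normalized counts, and floors cover counting error only. Coordinates and window sequences are GRCm39 with GENCODE vM39.

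The members and lists were chosen with earlier results of these data known. All 10 members are named, of each list up to 4 tested genes with the largest log2 fold change for FICZ with Jag1 whose higher group mean was 50 or more, and the 10 genes with a group mean of at least 50 most correlated with the members. Some list genes are named outside the rule for their role in granules or as markers (Bpi, Lyz1, Csf3r, Ly6g, Retnlg, Fcer1a, Ccr3 and Il5ra), chosen after their values were seen. Single p-values are given only for FICZ without Jag1. The fit was tested on simulated data.

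In the Jag1 cultures with TGFβ and IL-34, libraries with and without FICZ of the same number share an experiment code, and their deviations from group means correlated at 0.153, 0.122 and 0.166 across genes, so the numbers pair them. The main fit did not use this pairing. In the other contrasts the correlations ran from −0.0070 to 0.0591, under 0.1. For Jag1 with FICZ the same numbers share a code by the sample descriptions, at 0.0591 and 0.0578. In every contrast against TGFβ/IL-34 the same numbers stand for different codes, so those correlations cannot show whether libraries of the same experiment pair. The settings varied were the scaling (quantile normalization), the pseudocount (0.5 or 4), the filter (none), blocks by replicate number and by experiment code, fits of only the groups compared, and leaving out each library.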

Additional observations from a re-analysis of the deposited data

Results flagged for a closer look

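The FICZ effect differed between cultures with and without Jag1 for 2 of the 10 genes, by the interaction test in limma, where 1.17% of all genes passed on the higher side. The genes were chosen with the FICZ effect in Jag1 cultures known, which is a term of this difference, so the values are a description and not independent evidence. For Elane the difference was 6.28 on the log2 scale (SE 1.13), from an effect of 3.24 without Jag1 and 9.52 with it. For Cebpe the difference was 4.86 (SE 0.532), from 2.48 and 7.34. In both genes the 3 TGFβ/IL-34/Jag1 libraries lay below both TGFβ/IL-34 libraries and the 3 TGFβ/IL-34/Jag1/FICZ libraries above both TGFβ/IL-34/FICZ libraries. Taken singly, these separations occurred in 22.8% and 19.6% of all genes tested. Both genes stood under 10 normalized counts in every TGFβ/IL-34/Jag1 library, where the fitted value depends on the number added before the logarithm. The call was lost in 9 of 17 alternatives for Elane and in 0 of 17 for Cebpe. What the difference came from was not tested.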

How the results depend on the processing

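Counts below are of members called and, in parentheses, of all genes called, by limma. With the replicate block they were 2 (729) for Jag1 without FICZ, 0 (0) for FICZ without Jag1, 5 (652) for both together, 8 (2325) for FICZ with Jag1, 1 (187) for Jag1 with FICZ and 3 (204) for the interaction, where Ngp was added. The block changed no other member call. By the sample descriptions, the replicate numbers of TGFβ/IL-34 stand for other experiment codes than those of the other groups. In contrasts with TGFβ/IL-34 the block therefore joined libraries of different experiments, and cannot show whether pairing by experiment matters there. For FICZ without Jag1, 3 genes were called, against 5 with quantile normalization, 1 with the experiment code block and 0 with only its groups, and in the last 0 members were called. With 0.5 added, 1 member was called in the interaction. Without the filter the interaction had 1 (74), and Jag1 with FICZ had 0 members. With the experiment code block the interaction had 44 genes called, and Jag1 with FICZ had 0 members. With only the groups compared, both together had 2807 genes called, FICZ with Jag1 had 3598, and Jag1 with FICZ had 0 members and 0 genes.

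Leaving out 1 library gave 1 to 3 (195 to 714) for Jag1 without FICZ, 0 to 4 (0 to 5718) for FICZ without Jag1, 1 to 5 (35 to 308) for both together, 7 to 8 (1387 to 1821) for FICZ with Jag1, 0 to 2 (54 to 5820) for Jag1 with FICZ and 1 to 4 (9 to 5488) for the interaction. The highest counts in the comparisons with TGFβ/IL-34/FICZ came without its replicate 2. The lowest for Jag1 without FICZ and for the interaction came without replicate 2 of TGFβ/IL-34, and the lowest for both together without its replicate 1. In FICZ without Jag1 the log2 fold change turned for Mpo (−0.35), Camp (−0.0020) and Ltf (−0.23) without replicate 1 of TGFβ/IL-34, for Mpo (−1.02) without replicate 1 of TGFβ/IL-34/FICZ and for Gfi1 (−0.021) without its replicate 2, and none of these 5 passed. The ranges with 1 library left out were −1.02 to 2.36 for Mpo, −0.0020 to 3.95 for Camp, −0.23 to 3.45 for Ltf and −0.021 to 1.54 for Gfi1. In the interaction Ms4a3 was gained without replicate 1 of TGFβ/IL-34/Jag1, Gfi1 and Ngp without the second library with FICZ alone, and Ngp also without replicate 1 of TGFβ/IL-34. The causes were not tested. Depth limits Mpo, Camp and the lowest values of Elane, Cebpe and Gfi1, which rest on a few reads.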
